A study of Mus musculus with 12 samples.

Results

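The genes described here are the insulin-like growth factor (IGF) system of the mouse: the ligands Igf1 and Igf2, the receptors Igf1r and Igf2r, and the binding-protein genes Igfbp2, Igfbp3, Igfbp4, Igfbp5, Igfbp6 and Igfbp7. They were taken by symbol, and all 10 were found among the 16288 genes listed in at least 1 of the 12 deposited tables. IGF ligands are secreted peptides that signal through the tyrosine kinase IGF1R, the product of Igf1r, to the PI3K, AKT and mTOR pathway. The Igf2r product is a scavenger that takes IGF2 to the lysosome, and the binding proteins hold the ligands outside the cell. In skeletal muscle, IGF signalling promotes both myoblast proliferation and differentiation, and IGF2 made by the muscle cells themselves is a known autocrine signal of differentiation.

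RNA was sequenced from C2C12 cells, an immortalized mouse myoblast line, at 3 stages and with 2 treatments, in 6 groups of 2 libraries each. Proliferating cells (labelled GM) were kept in medium with 10% fetal bovine serum, and differentiating cells, taken after 24 h (DM 24h) or 48 h (DM 48h), were in medium with 2% horse serum and insulin at 2 ug/ml, added after 90% confluence. Cells received either DMSO, the vehicle, or 50 uM PFI-3, an inhibitor of the bromodomains of BRG1 and BRM, ATPases of SWI/SNF chromatin remodellers. GM cells were treated for 12 h before harvest, and the DM cells also had 12 h of pretreatment, after which the agent was renewed every 24 h in differentiation medium. The libraries of a group, A and B, are described as biological duplicates. Stage differs from GM in serum, insulin, cell density and time together, and the parts of these in a stage difference cannot be told apart. PFI-3 exposure was longer at each later stage too. Stage and length of exposure therefore cannot be told apart where the PFI-3 effect changes between stages. Insulin is itself a ligand of the insulin receptor in this pathway, and the labels name it for the differentiation medium only.

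The libraries held 12576374 to 13658352 expected counts each. The GM replicates differed more than the others: across genes averaging 50 counts or more, the log2 ratios of library B to A had an SD of 0.332 with DMSO and 0.311 with PFI-3 in GM, and 0.141 to 0.160 in the 4 DM groups. Igfbp5 stood far outside this spread, with log2 ratios of 2.29 and 2.45 in the DMSO and PFI-3 pairs of GM. Only 13 of 10195 genes in the GM DMSO pair and 6 in the GM PFI-3 pair had a larger ratio in either direction. One spread was estimated over all 12 libraries, so a fit without the 4 GM libraries is given too for the 10 genes, beside comparisons of the DM groups whose call it changes. Myoblast markers (Myod1, Myf5, Des, Cdh15 and Pax7) were detected in all groups, 5 of 5. Their summed level, in CPM (counts scaled to library size), was 822 to 856 with DMSO and 522 to 656 with PFI-3 in GM. There Des and Cdh15 were lower in both PFI-3 libraries, while Myod1, Myf5 and Pax7 overlapped between the treatments. The summed level of 6 myotube markers was 5.83 to 11.5 CPM in GM. It was 2363 to 2372 CPM with DMSO against 973 to 981 with PFI-3 at 24 h.

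**Figure D1:**
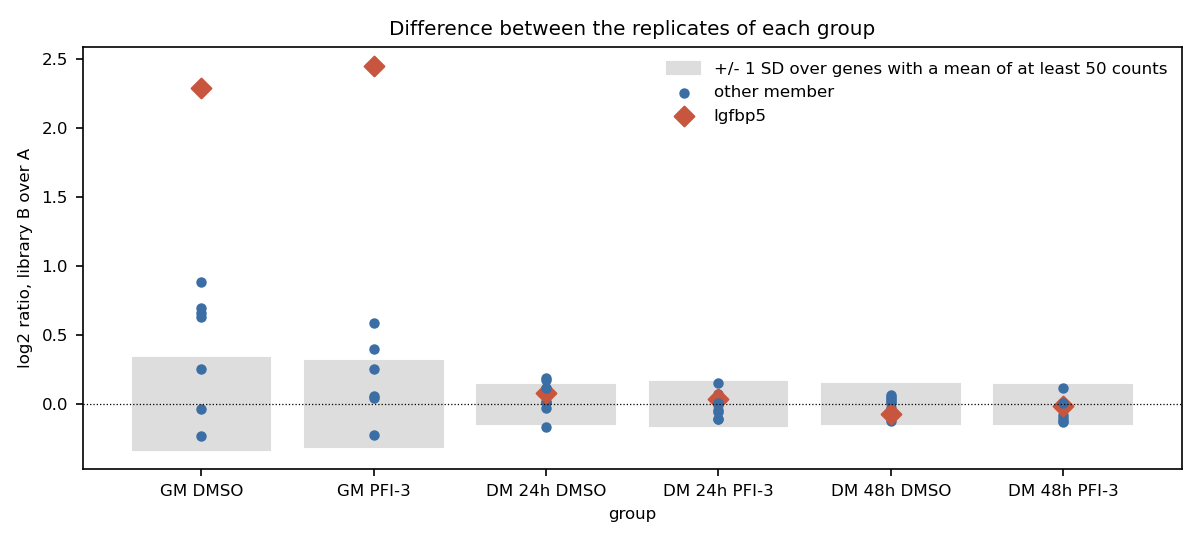
Log2 ratio of library B to library A for each gene of the IGF system (vertical axis) in each of the 6 groups (horizontal axis); the grey band spans 1 SD on either side of 0 across genes averaging 50 counts or more, and members under that mean are not drawn. Igfbp5, the red diamonds, sits at 2.29 and 2.45 in the GM groups and inside the band in the 4 DM groups.

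The upstream windows of 4 genes are shown because these genes had the largest opposed changes with differentiation. Igf1, Igf2 and Igfbp5 had the largest rises of the system, and Igfbp2, which lies tail to tail with Igfbp5 on chromosome 1 with 5590 bases between them, had the largest fall. Each window runs 5′ to 3′ on the gene's strand from 250 bases before to 50 bases after a RefSeq transcript start (GRCm38.p6, which is the build named mm10 in the submitters' processing notes). Capitals mark E-boxes, CANNTG, the general pattern that includes the letters recognized by myogenic factors such as MyoD and myogenin. Whether such factors bind any of the marked letters was not tested. The Igfbp5 window is chr1:72874816-72875115 on the minus strand, and that of Igfbp2 is chr1:72824230-72824529 on the plus strand. The Igf1 window is chr10:87860861-87861160 on the plus strand, and that of the outermost Igf2 start is chr7:142666767-142667066 on the minus strand. Which RefSeq start of a gene was in use in these cells was not tested.
Igfbp5: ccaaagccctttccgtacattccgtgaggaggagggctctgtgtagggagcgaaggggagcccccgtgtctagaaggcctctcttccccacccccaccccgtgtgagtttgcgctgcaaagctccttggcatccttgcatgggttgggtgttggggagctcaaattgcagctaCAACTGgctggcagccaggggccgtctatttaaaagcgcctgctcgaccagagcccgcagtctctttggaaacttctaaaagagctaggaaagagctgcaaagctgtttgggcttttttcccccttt
Igfbp2: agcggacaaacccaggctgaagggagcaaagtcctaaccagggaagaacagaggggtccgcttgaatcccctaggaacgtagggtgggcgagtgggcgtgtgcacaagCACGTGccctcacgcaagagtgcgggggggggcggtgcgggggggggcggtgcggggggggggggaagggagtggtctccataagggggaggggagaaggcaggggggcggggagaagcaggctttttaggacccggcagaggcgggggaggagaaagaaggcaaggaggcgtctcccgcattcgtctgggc
Igf1: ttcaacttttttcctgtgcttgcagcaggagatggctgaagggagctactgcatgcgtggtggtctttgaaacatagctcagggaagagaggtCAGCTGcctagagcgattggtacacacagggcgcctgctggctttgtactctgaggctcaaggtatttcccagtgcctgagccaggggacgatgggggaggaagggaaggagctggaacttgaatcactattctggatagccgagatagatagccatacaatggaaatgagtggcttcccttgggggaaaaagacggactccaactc
Igf2: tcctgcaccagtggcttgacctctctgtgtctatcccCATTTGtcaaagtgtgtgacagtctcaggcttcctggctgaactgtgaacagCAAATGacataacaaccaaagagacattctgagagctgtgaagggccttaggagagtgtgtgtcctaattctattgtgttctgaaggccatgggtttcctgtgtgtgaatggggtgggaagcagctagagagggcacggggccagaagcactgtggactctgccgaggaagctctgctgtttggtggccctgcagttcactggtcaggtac

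The E-box of Igfbp5 is CAACTG and begins 77 bases before the start, and that of the Igfbp2 window shown is CACGTG, 142 bases before its start. Another Igfbp2 window, at start 72825387, holds CATTTG 55 bases before that start and CAGGTG 19 bases after it. The Igf1 window holds CAGCTG 157 bases before its start at 87861111, which lies inside the gene span that begins at 87858265. The window of the outermost Igf2 start holds CATTTG and CAAATG, 213 and 161 bases before that start. The Igf2 windows at starts 142661271 and 142657496 hold no CANNTG, and that at 142658804 holds CAAGTG 5 bases after the start. These are descriptions of the letters only: CANNTG, which reads the same on both strands, is in 72.3% of all 32851 windows of this length, and in 10 of the 14 windows of the IGF system, which cover all 10 genes. CAGCTG, which is one form of CANNTG, is in 16.3% of all windows and in 1 of the 14. The AP-1 letters TGANTCA are in 7.81% of all windows and in 2 of the 14, one of them the Igf1 window. TATAAA, searched on both strands, is in 13.6% and in 2, those of Igfbp4 and Igfbp6.

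Both ligands rose with differentiation in the vehicle cells. Igf1 (chr10:87858265-87937047, plus strand), a ligand with high affinity for the IGF1 receptor, was close to 0 in GM, with 2 and 4 expected counts in the 2 DMSO libraries. It had 189 and 173 counts at 24 h and 243 and 232 at 48 h. The ratio of its summed counts to GM was 62.1 (95% counting interval 28.3 to 170.5) at 24 h and 84.9 (38.7 to 233) at 48 h. The GM counts were at or near the floor of 3 counts, so these ratios are imprecise, and the intervals cover counting error only. The rise passed edgeR's quasi-likelihood test at both times, with adjusted p-values of 2e-08 and 2.41e-09.

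Igf2 (chr7:142650768-142666816, minus strand), the imprinted embryonic ligand, rose further and later. Its FPKM, a level per transcript length and library size, was 0.50 and 0.46 in GM DMSO, 40.06 and 43.74 at 24 h and 236.92 and 232.61 at 48 h. No stage overlapped another. The ratio of summed counts to GM was 92.2 (95% counting interval 67.8 to 129) at 24 h and 539 (397 to 751) at 48 h, from 20 and 21 counts in GM. Between 24 h and 48 h it rose again (log2 fold change 2.55 ± 0.08, adjusted p = 3.48e-10), while Igf1 rose little (log2 fold change 0.45 ± 0.16, adjusted p = 0.0361). The later rise of Igf1 did not pass when any of the 4 libraries compared was left out, with adjusted p-values of 0.0770 to 0.196. Igf2 made up 87.5% to 100% of the summed ligand FPKM in every library, the 100% being the GM PFI-3 library where Igf1 was not listed.

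Igf2 was lower with PFI-3 at 24 h, and the effect was smaller at 48 h. At 24 h the FPKM of Igf2 was 40.06 and 43.74 with DMSO and 21.61 and 20.64 with PFI-3, and both PFI-3 libraries lay far below both DMSO libraries. Counts gave a 2.06-fold lower level (log2 fold change -1.04 ± 0.08, adjusted p = 5.4e-06). At 48 h the FPKM was 236.92 and 232.61 with DMSO and 227.33 and 222.23 with PFI-3, and again the groups did not overlap. The difference was small there and not called (log2 fold change -0.16 ± 0.08, adjusted p = 0.142); in the fit without the GM libraries it was called, at -0.16 (adjusted p = 0.000656). The change in the PFI-3 effect from 24 h to 48 h passed its own test, an interaction contrast (log2 difference 0.88 ± 0.11, adjusted p = 0.000312). In GM, Igf2 had 20 and 21 counts with DMSO and 19 and 10 with PFI-3, and the difference was not called (adjusted p = 0.262).

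In the fit over all 12 libraries, Igf1 was not called for PFI-3 at any stage. Its FPKM at 24 h was 2.14 and 1.90 with DMSO and 1.76 and 1.62 with PFI-3, without overlap (log2 fold change -0.30 ± 0.17, adjusted p = 0.217). At 48 h it was 2.70 and 2.59 with DMSO and 2.64 and 2.41 with PFI-3, with overlap (log2 fold change -0.15 ± 0.16, adjusted p = 0.521). In GM it had 2 and 4 counts with DMSO and 0 and 3 with PFI-3, at the floor, and no fold is given. Without the GM libraries the 24 h difference was -0.30 with an adjusted p of 0.0420.

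**Figure D2:**
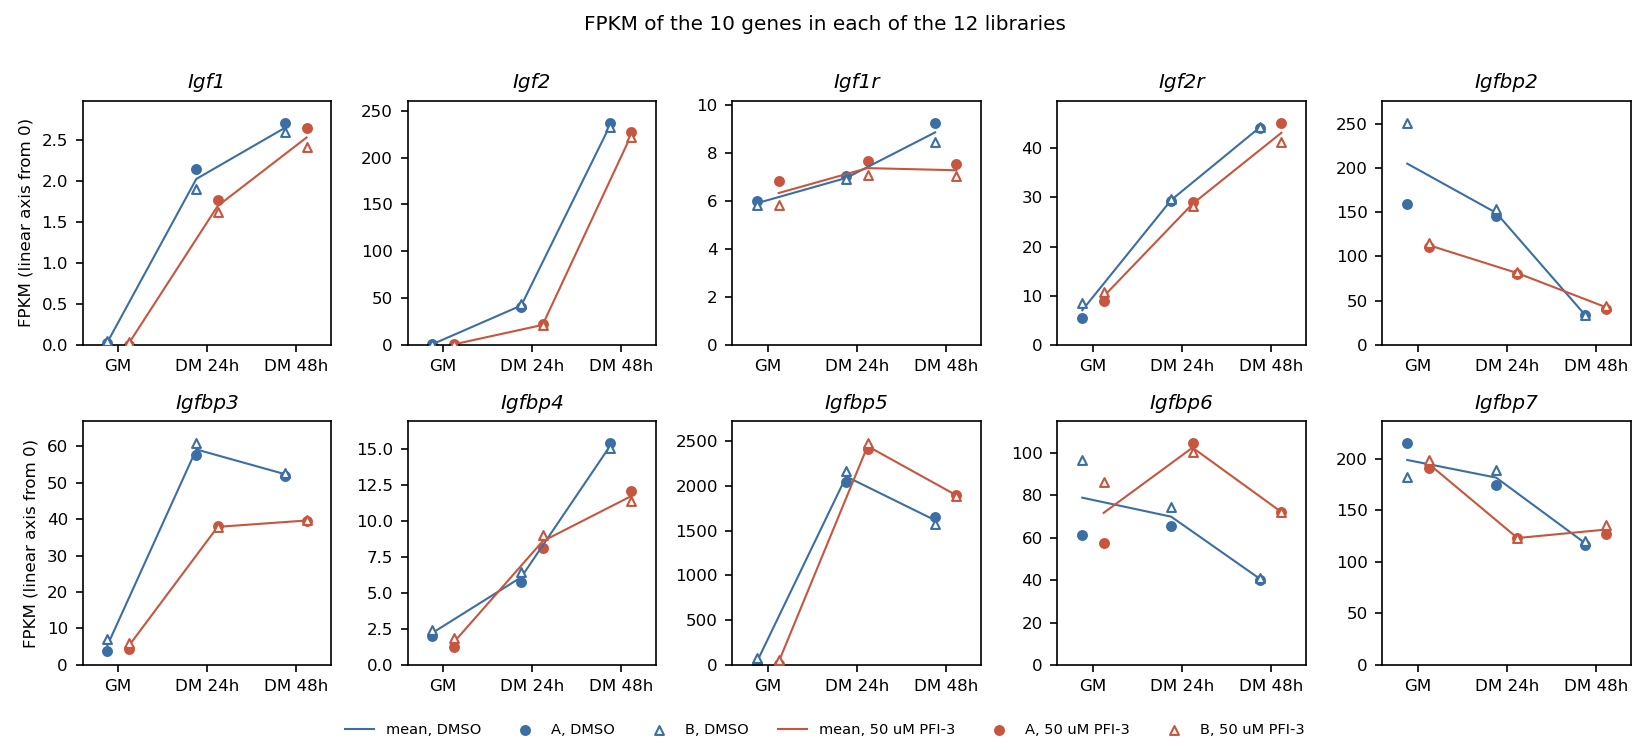
FPKM (vertical axis, linear and starting at 0, scaled per panel) of the 10 genes in each library by stage (horizontal axis); blue is DMSO, red is 50 uM PFI-3, circles are library A, triangles library B, and lines join the means of the 2 libraries. Igf2 reaches 222 to 237 FPKM at 48 h in both treatments, and Igfbp5 passes 1575 FPKM in every DM library.

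The receptors behaved differently from each other. Igf1r (chr7:67952257-68233668, plus strand), the signalling receptor, moved within a narrow range of 5.83 to 9.24 FPKM over all 12 libraries. With DMSO it was 5.98 and 5.83 in GM, 7.02 and 6.89 at 24 h and 9.24 and 8.47 at 48 h. It was higher at 48 h than in GM (log2 fold change 0.59 ± 0.09, adjusted p = 5.74e-05) and than at 24 h (log2 fold change 0.41 ± 0.09, adjusted p = 0.00210). The step from GM to DM 24h was not called (log2 fold change 0.18 ± 0.09, adjusted p = 0.0912).

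Igf2r (chr17:12682406-12769706, minus strand), the scavenger receptor, rose at both steps. Its DMSO FPKM was 5.51 and 8.55 in GM, 29.32 and 29.62 at 24 h and 44.24 and 44.40 at 48 h, with no overlap between stages. The increase over GM was 4.06-fold at 24 h (log2 fold change 2.02 ± 0.14, adjusted p = 1.76e-07) and 6.38-fold at 48 h (log2 fold change 2.67 ± 0.14, adjusted p = 5.24e-09). The ratio of Igf2r to Igf1r FPKM thus went from 0.921 to 1.83 in the 4 GM libraries to 3.81 to 4.30 at 24 h and 4.79 to 5.99 at 48 h, both treatments included.

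With PFI-3, Igf1r was lower at 48 h and Igf2r was not called at any stage in the fit over all 12 libraries. At 48 h the FPKM of Igf1r was 9.24 and 8.47 with DMSO and 7.53 and 7.02 with PFI-3, with no overlap (log2 fold change -0.37 ± 0.09, adjusted p = 0.00795). The call was lost without DMSO library A (adjusted p = 0.0845) or PFI-3 library B (0.0823) of that stage. At 24 h Igf1r was at 7.02 and 6.89 FPKM with DMSO and 7.65 and 7.08 with PFI-3, and the 2 groups did not overlap. In CPM they did overlap, at 83.5 and 82.4 with DMSO and 88.3 and 81.7 with PFI-3. In GM with PFI-3 Igf1r was at 6.82 and 5.83 FPKM, overlapping the vehicle pair. At 24 h it differed by 0.03 on the log2 scale (adjusted p = 0.811), and the change of the effect between 24 h and 48 h fell just short (log2 difference -0.40 ± 0.12, adjusted p = 0.0545; adjusted p = 8.98e-05 without the GM libraries). Igf2r with PFI-3 was at 29.11 and 28.26 FPKM at 24 h and 45.14 and 41.22 at 48 h, close to the vehicle values. It differed by -0.09 at 24 h and -0.12 at 48 h (adjusted p = 0.680 and 0.525). In GM, Igf2r FPKM was 5.51 and 8.55 with DMSO and 8.97 and 10.69 with PFI-3 (log2 fold change 0.39 ± 0.14, adjusted p = 0.0944). Without the GM libraries, Igf2r at 48 h was called, at -0.13 (adjusted p = 0.0136). The GM difference was called by DESeq2 (adjusted p = 0.0484), with a replicate block on the 4 GM libraries (0.43, adjusted p = 0.0436) and without GM DMSO B (0.70, adjusted p = 0.000579).

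The binding proteins fell into a group that rose with differentiation, Igfbp5, Igfbp3 and Igfbp4, and a group that was lower at 48 h, Igfbp2, Igfbp6 and Igfbp7. Igfbp5 (chr1:72858065-72874865, minus strand), the binding protein well known from differentiating myoblasts, was the most changed of the 6. In vehicle cells it had 1208 and 5924 counts in GM, 149071 and 162103 at 24 h and 123060 and 116427 at 48 h. It was the gene with the most counts in 7 of the 8 DM libraries and the second in the remaining one, DM 48h DMSO B. It took 0.911% to 1.43% of all counts in DM against 0.00609% to 0.0434% in GM. By FPKM it ranked between 9 and 17 of all genes in the DM libraries.

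The rise of Igfbp5 over GM was 45.8-fold at 24 h (log2 fold change 5.52 ± 0.76, adjusted p = 5.75e-05) and 36.7-fold at 48 h (log2 fold change 5.20 ± 0.75, adjusted p = 4.62e-05). Its size depended on the GM library it was set against, since GM DMSO B had 74.97 FPKM and GM DMSO A 15.35. The 24 h log2 fold change was 4.80 without GM DMSO A and 7.01 without GM DMSO B, and both fits called it. From 24 h to 48 h the difference was not called over all libraries (log2 fold change -0.32 ± 0.63, adjusted p = 0.707), and was called without the GM libraries, at -0.31 ± 0.04 (adjusted p = 1.03e-09). What set the 2 GM libraries of each treatment apart was not tested.

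Igfbp3 (chr11:7206086-7215498, minus strand), the main carrier of IGFs in blood, was at 3.77 and 6.98 FPKM in GM DMSO, 57.48 and 60.79 at 24 h and 51.94 and 52.71 at 48 h. It had reached its level by 24 h, 10.7-fold over GM (log2 fold change 3.41 ± 0.17, adjusted p = 1.08e-08), and its later difference was not called (log2 fold change -0.11 ± 0.14, adjusted p = 0.546); without the GM libraries it was called, at -0.11 (adjusted p = 0.0476). Igfbp4 (chr11:99040005-99052655, plus strand), a binding protein that inhibits IGF action and is cut by the protease PAPP-A, instead climbed at both steps. Its FPKM was 2.03 and 2.42 in GM, 5.74 and 6.46 at 24 h and 15.40 and 15.06 at 48 h, with no overlap. The rise over GM was 2.64-fold at 24 h (log2 fold change 1.40 ± 0.17, adjusted p = 1.66e-05) and 6.89-fold at 48 h (log2 fold change 2.78 ± 0.15, adjusted p = 7.57e-09).

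Igfbp2 (chr1:72824480-72852474, plus strand), which binds IGF2 with preference, fell most. Its DMSO FPKM was 159.22 and 251.02 in GM, 145.28 and 153.55 at 24 h and 33.73 and 33.83 at 48 h. Both GM libraries were above the DM libraries of either time. The fall to 24 h was modest (log2 fold change -0.51 ± 0.14, adjusted p = 0.00781) and was not called without GM DMSO B (log2 fold change -0.17, adjusted p = 0.0582), without DM 24h DMSO A (0.0664) or in a fit of these 4 libraries alone (0.0762). From 24 h to 48 h it fell 4.14-fold (log2 fold change -2.05 ± 0.15, adjusted p = 4.75e-07).

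Igfbp6 (chr15:102144186-102149512, plus strand), with strong preference for IGF2, was at 61.30 and 96.54 FPKM in GM DMSO, 65.41 and 74.50 at 24 h and 40.18 and 40.96 at 48 h. The 24 h values lay inside the GM range, and the 48 h values were below both (log2 fold change -0.72 ± 0.19, adjusted p = 0.00799 from 24 h). That fall was not called without DM 24h DMSO B (adjusted p = 0.0650) or DM 48h DMSO A (0.0531). Igfbp7 (chr5:77349240-77408045, minus strand), a related protein with low affinity for IGFs, was at 214.76 and 182.61 in GM, 174.18 and 189.04 at 24 h and 116.24 and 119.96 at 48 h. It too fell in the second day (log2 fold change -0.56 ± 0.09, adjusted p = 0.000382). The steps of Igfbp6 and Igfbp7 from GM to DM 24h were not called (adjusted p = 0.321 and 0.0991), but were without GM DMSO A for Igfbp6 (0.0224) and without GM DMSO B for Igfbp7 (0.00168).

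Counted together, 7 of the 10 genes were called between GM and DM 24h in vehicle cells, 6 higher and 1 lower. Of all 12545 genes tested 60.6% were called, 30.6% higher and 30.0% lower. At 48 h against GM all 10 were called, 7 higher and 3 lower, beside 73.1% of all genes, 37.2% higher and 35.9% lower. From DM 24h to DM 48h 8 were called, 5 higher and 3 lower, beside 48.1%, 24.2% higher and 23.9% lower. In the fit without the GM libraries all 10 were called in that last step, 5 higher and 5 lower, beside 63.1% of all genes, 32.0% higher and 31.1% lower. With so much of the transcriptome called, these counts say little of the IGF system. The median log2 fold change of the 10 genes was 1.71 and 2.73 against GM and 0.15 in the last step, where the medians over all genes were 0.02, 0.03 and 0.00. The scaling of the libraries holds the median over all genes near 0. These medians therefore do not show whether the sizes in the IGF system are unusual. A change in RNA per cell and a change in the share of cells that make it cannot be told apart in these bulk libraries.

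The sum of the 6 binding-protein FPKM values was 376 to 615 in the GM libraries, 2495 to 2827 at 24 h and 1838 to 2193 at 48 h. Without Igfbp5 the sums were 365 to 540, 353 to 484 and 257 to 303. In GM the mixture was led by Igfbp7, with 29.7% to 50.9% of the sum, and Igfbp2, with 24.7% to 40.8%. In all 8 DM libraries Igfbp5 held 81.7% to 87.5%, and Igfbp2 1.76% to 5.82%. Set against the ligands, the binding-protein sum was 59.1 and 58.0 times the ligand FPKM sum at 24 h with DMSO and 118 and 127 times with PFI-3. At 48 h it was 7.98 and 7.81 times with DMSO and 9.54 and 9.74 times with PFI-3. These are ratios of mRNA levels per length, not of proteins.

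**Figure D3:**
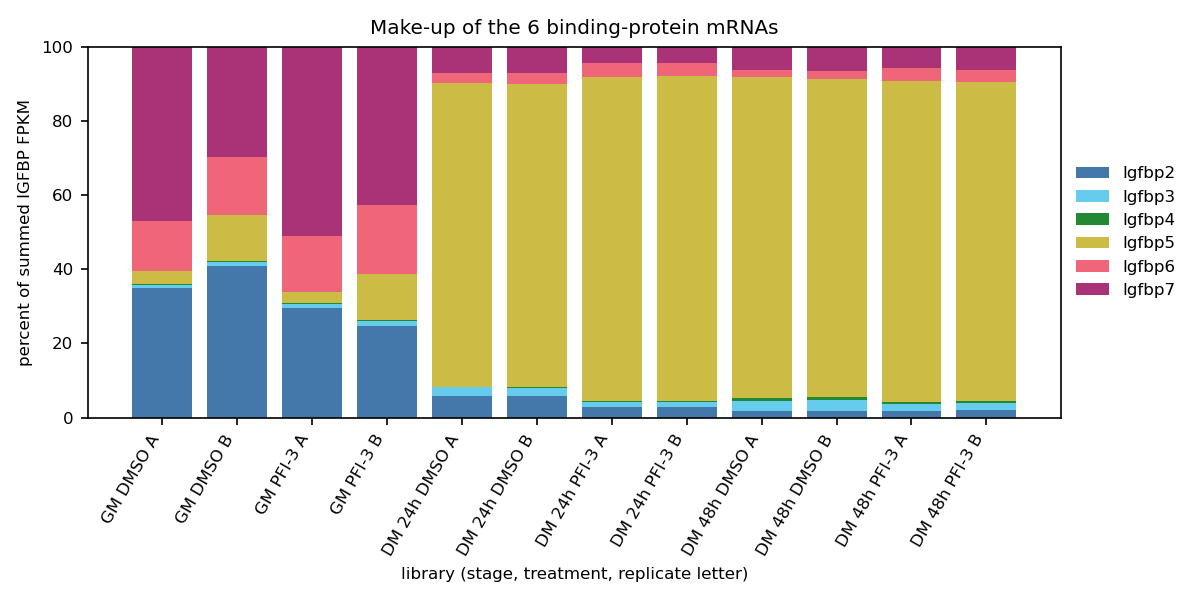
Share of each binding-protein mRNA in the summed FPKM of the 6 genes (vertical axis, percent) in each of the 12 libraries (horizontal axis). Igfbp5 holds 2.80% to 12.4% in the GM libraries and 81.7% to 87.5% in the DM libraries.

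Binding proteins were called in both directions with PFI-3. In GM only Igfbp2 was called. Its FPKM was 159.22 and 251.02 with DMSO and 110.90 and 114.77 with PFI-3, and both treated libraries were below both vehicle libraries (log2 fold change -0.94 ± 0.14, adjusted p = 0.00204). In a fit of the 4 GM libraries alone the difference was -0.92 and not called (adjusted p = 0.192). Over all stages, leaving out GM DMSO A or B gave -1.21 or -0.59, both called. Igfbp5 in GM was at 15.35 and 74.97 FPKM with DMSO and 10.53 and 57.47 with PFI-3, the libraries dividing by replicate letter and not by treatment (log2 fold change -0.48 ± 0.64, adjusted p = 0.666). Within each letter the PFI-3 library was the lower one, and with a replicate block on the 4 GM libraries the difference was called (log2 fold change -0.54 ± 0.10, adjusted p = 0.0207). The other 4 binding proteins gave log2 differences between -0.60 for Igfbp4 and -0.13 for Igfbp7, none called. Their PFI-3 FPKM values were 4.50 and 5.92 for Igfbp3, 1.25 and 1.88 for Igfbp4, 57.37 and 86.13 for Igfbp6 and 191.23 and 198.79 for Igfbp7. Calls appeared when single GM libraries were left out: without DMSO A for Igfbp3 (adjusted p = 0.0479), without DMSO B for Igfbp7 (0.0190), and without PFI-3 B for Igfbp4 (0.0236) and Igfbp5 (0.0396, with a log2 fold change of -2.18).

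At 24 h, Igfbp2, Igfbp3 and Igfbp7 were lower with PFI-3. Igfbp2 was at 145.28 and 153.55 FPKM with DMSO and 79.91 and 82.18 with PFI-3 (log2 fold change -0.91 ± 0.15, adjusted p = 0.00102). Igfbp3 was at 57.48 and 60.79 with DMSO and 38.00 and 37.77 with PFI-3 (log2 fold change -0.69 ± 0.15, adjusted p = 0.00529). Igfbp7 was at 174.18 and 189.04 with DMSO and 122.95 and 123.11 with PFI-3 (log2 fold change -0.61 ± 0.09, adjusted p = 0.000697). For all 3 genes the treated pair was tight and lay below both vehicle libraries. The call of Igfbp3 did not hold without DMSO library B (adjusted p = 0.0551) or without PFI-3 library A or B (0.0530 and 0.0507).

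Igfbp4 and Igfbp6 were on the other side at 24 h. Igfbp4 was at 5.74 and 6.46 FPKM with DMSO and 8.13 and 9.06 with PFI-3 (log2 fold change 0.44 ± 0.14, adjusted p = 0.0395), a call that was lost with DESeq2-style size factors (adjusted p = 0.0511), with the DESeq2 Wald test (0.140) and when any of the 4 libraries was left out (0.0856 to 0.231). Igfbp6 was at 65.41 and 74.50 with DMSO and 104.54 and 100.54 with PFI-3, with no overlap, but was not called (log2 fold change 0.50 ± 0.18, adjusted p = 0.0675; adjusted p = 4.95e-10 without the GM libraries). Igfbp5 was at 2046.78 and 2161.73 with DMSO and 2412.60 and 2473.95 with PFI-3, also with no overlap. Its difference of 0.17 on the log2 scale had an SE of 0.62 in the fit over all libraries (adjusted p = 0.875) and of 0.04 without the GM libraries (difference 0.17, adjusted p = 0.000177).

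At 48 h, Igfbp6 was higher with PFI-3 and Igfbp3 and Igfbp4 were lower. Igfbp6 was at 40.18 and 40.96 FPKM with DMSO and 72.11 and 72.19 with PFI-3, 1.67-fold higher by counts (log2 fold change 0.74 ± 0.19, adjusted p = 0.0128). Igfbp3 was at 51.94 and 52.71 with DMSO and 39.57 and 39.70 with PFI-3 (log2 fold change -0.49 ± 0.15, adjusted p = 0.0262). Igfbp4 was at 15.40 and 15.06 with DMSO and 12.09 and 11.40 with PFI-3 (log2 fold change -0.46 ± 0.13, adjusted p = 0.0183). In each of the 3 genes the replicates were close and the groups did not overlap. Even so, with any 1 of the 4 libraries left out none of the 3 was called, with adjusted p-values of 0.0646 to 0.0822 for Igfbp6, 0.107 to 0.136 for Igfbp3 and 0.0753 to 0.127 for Igfbp4. The log2 fold change of Igfbp6 stayed between 0.72 and 0.75 in those fits.

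The remaining binding proteins were not called at 48 h. Igfbp2 was at 33.73 and 33.83 FPKM with DMSO and 40.51 and 43.92 with PFI-3, now higher in both treated libraries (log2 fold change 0.22 ± 0.16, adjusted p = 0.353; adjusted p = 0.0103 without the GM libraries). Igfbp7 was at 116.24 and 119.96 with DMSO and 126.44 and 136.09 with PFI-3 (log2 fold change 0.06 ± 0.09, adjusted p = 0.672; adjusted p = 0.360 without the GM libraries). In CPM its groups overlapped, at 126.5 and 131.2 with DMSO and 129.6 and 139.6 with PFI-3. Igfbp5 was at 1655.77 and 1575.17 with DMSO and 1902.20 and 1885.72 with PFI-3 (log2 fold change 0.14 ± 0.62, adjusted p = 0.896; adjusted p = 0.00182 without the GM libraries). In both DM stages the treated Igfbp5 libraries were thus above the vehicle libraries, by 1.12-fold and 1.10-fold in the fit of counts over all libraries.

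**Figure D4:**
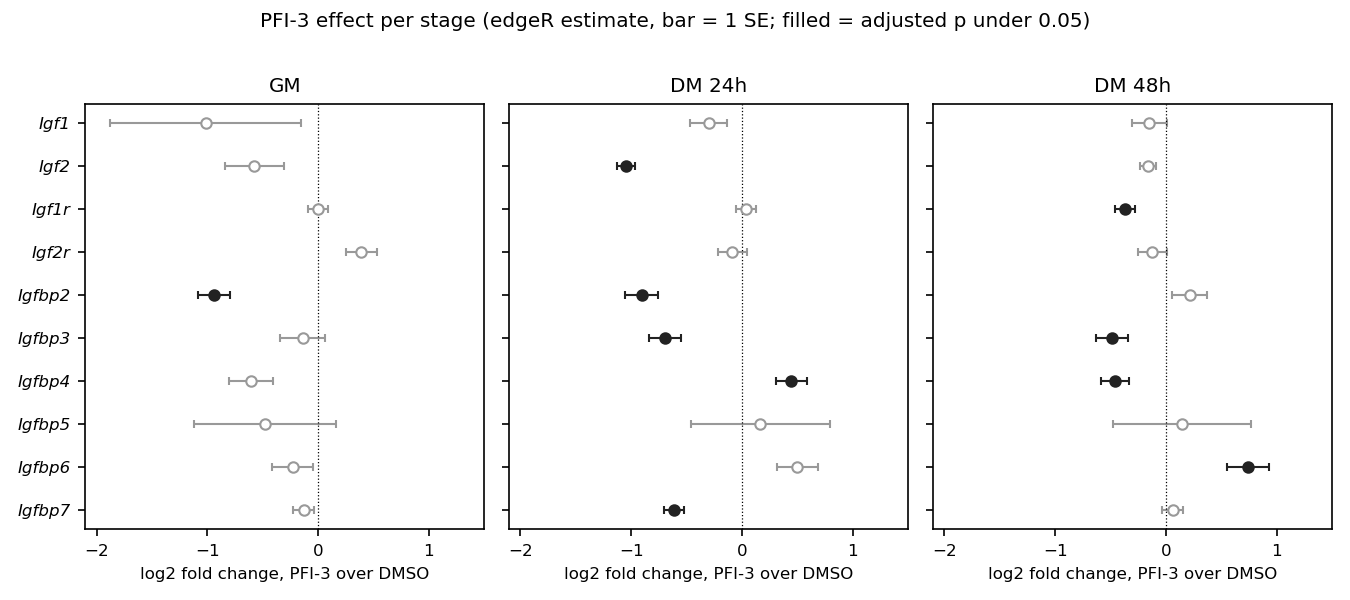
Log2 fold change of PFI-3 over DMSO (horizontal axis) for the 10 genes (vertical axis) in GM, at 24 h and at 48 h, from edgeR; bars are 1 SE and filled points have an adjusted p under 0.05. Igf2, Igfbp2, Igfbp3 and Igfbp7 are filled on the lower side at 24 h, and Igfbp6 is filled on the higher side at 48 h; the Igf1 point in GM rests on 6 counts with DMSO and 3 with PFI-3.

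Over the 10 genes, PFI-3 gave 1 call in GM (lower), 5 at 24 h (1 higher and 4 lower) and 4 at 48 h (1 higher and 3 lower). Among all genes tested, 11.6% were called in GM (5.46% higher, 6.15% lower), 23.6% at 24 h (12.2% and 11.4%) and 27.4% at 48 h (13.4% and 14.0%). The median log2 fold change of the 10 genes was -0.35 in GM (-0.23 without Igf1), -0.19 at 24 h and -0.14 at 48 h, beside -0.01, 0.00 and 0.00 over all genes. The scaling holds the medians over all genes near 0 here too. In the fit without the 4 GM libraries, 8 of the 10 were called at 24 h and 8 at 48 h, 3 higher and 5 lower each time, where 44.7% (22.9% higher, 21.8% lower) and 47.2% (22.9% higher, 24.3% lower) of all genes were called. In fits of only the 4 libraries compared, 8 were called at each of these times, beside 46.5% and 46.8% of all genes. In GM such a fit called 0 of the 9 genes it tested, beside 0.275% of all genes. Of the 9, 1 had an unadjusted p under 0.05. DESeq2 on all libraries called 2 in GM, beside 1118 of all genes. The 2 CPM values of each treatment did not overlap for 4 genes in GM, 9 at 24 h and 9 at 48 h, and for 45.4%, 70.5% and 71.3% of all genes. Between the vehicle stages they did not overlap for 8, 10 and 10 members, beside 80.1%, 86.0% and 79.4% of all genes.

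Stage and length of PFI-3 exposure changed together in the 3 interaction contrasts and cannot be told apart. Calls of a difference in the PFI-3 effect among the 10 genes are given for each contrast, beside its share of all genes. From DM 24h to DM 48h, 4 were called, beside 12.1% of all genes: Igf2 (0.88), Igfbp2 (log2 difference 1.12 ± 0.22, adjusted p = 0.00522) and Igfbp7 (log2 difference 0.68 ± 0.13, adjusted p = 0.00587) moved upwards, and Igfbp4 turned from higher to lower (log2 difference -0.91 ± 0.19, adjusted p = 0.00868). From GM to DM 48h, Igfbp2 (log2 difference 1.15 ± 0.21, adjusted p = 0.00382) and Igfbp6 (log2 difference 0.97 ± 0.27, adjusted p = 0.0301) were called, beside 14.5% of all genes. From GM to DM 24h only Igfbp4 was called (log2 difference 1.05 ± 0.25, adjusted p = 0.0408), beside 3.37%. Fits of only the libraries compared called 0, 1 and 7 members for GM to DM 24h, GM to DM 48h and DM 24h to DM 48h, beside 0.644%, 8.33% and 33.6% of all genes; 3 members had an unadjusted p under 0.05 in the first. Besides Igf1r, the members added between the DM stages without the GM libraries were Igfbp3 (0.20, adjusted p = 0.0340) and Igfbp6 (0.23, adjusted p = 0.0312). The Igfbp6 and the GM-to-24 h Igfbp4 contrasts were not called in fits of only the libraries compared (adjusted p = 0.0927 and 0.150). Both turned on single libraries too, with adjusted p-values up to 0.103 without DM 48h DMSO A and 0.157 without DM 24h DMSO A. The Igfbp4 contrast between the DM stages reached 0.0572 without DM 24h DMSO A, 0.0546 without DM 24h PFI-3 B and 0.0506 without DM 48h PFI-3 B.

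Ordered by mean FPKM, the 6 groups did not follow one pattern. Igf2 rose through GM PFI-3, GM DMSO, DM 24h PFI-3, DM 24h DMSO, DM 48h PFI-3 and DM 48h DMSO, and no neighbouring ranges overlapped. Igf1 had the same order, with overlaps between the 2 GM groups and between the 2 DM 48h groups. Igf2r went from GM DMSO, GM PFI-3, DM 24h PFI-3 and DM 24h DMSO to the 2 DM 48h groups, which overlapped. Igfbp5 was lowest in the 2 overlapping GM groups, then rose through DM 48h DMSO, DM 48h PFI-3 and DM 24h DMSO to DM 24h PFI-3. Igfbp2 ran from DM 48h DMSO, DM 48h PFI-3, DM 24h PFI-3 and GM PFI-3 to DM 24h DMSO and GM DMSO. Igfbp6 was highest in DM 24h PFI-3 and lowest in DM 48h DMSO, and the ranges of DM 24h DMSO, GM PFI-3, DM 48h PFI-3 and GM DMSO each overlapped with the next.

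The genes with the most similar profiles to the 3 members of highest mean FPKM were found by Pearson correlation of log2(CPM + 1) over the 12 libraries, among 10357 genes averaging 5 CPM or more. For Igfbp5 they included Islr (0.992) and Ccdc157 (0.991). For Igfbp7 they were Ncln (0.970), Zfp131 (0.963) and Ube2d3 (0.963). For Igfbp2 they were Sec61b (0.974), Lbr (0.969) and Tmem97 (0.967). Islr ran from 13.0 to 525 CPM across the libraries. These correlations describe libraries that share stage and treatment, and carry no test.

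Downstream and accessory genes of the pathway were read from 7 lists with 54 genes, of which 52 were in the tables and 49 passed the low-count filter; Igfbp1 and H19 are not analysed here. With PFI-3, 8 of the 49 were called in GM (4 higher, 4 lower), 12 at 24 h (5 higher, 7 lower) and 23 at 48 h (7 higher, 16 lower). Of all genes tested, 11.6%, 23.6% and 27.4% were called. In the fit without the GM libraries, 26 of 48 were called at 24 h (10 higher, 16 lower) and 27 at 48 h (7 higher, 20 lower), beside 44.7% and 47.2% of all genes. The median log2 fold change of the 49 genes was 0.02, -0.03 and -0.12.

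Next to the receptors, the adaptors Irs1 and Irs2, which carry the signal from the IGF1 and insulin receptors to PI3K, went different ways. Irs2 was at 29.1 and 28.2 CPM in GM with DMSO and 56.0 and 58.4 with PFI-3 (log2 fold change 1.00 ± 0.09, adjusted p = 6.8e-05). At 24 h it was at 13.5 and 16.2 with DMSO and 21.8 and 20.1 with PFI-3 (log2 fold change 0.50 ± 0.11, adjusted p = 0.00528), and at 48 h, reversed, at 24.0 and 22.5 with DMSO and 16.6 and 16.9 with PFI-3 (log2 fold change -0.47 ± 0.10, adjusted p = 0.00517). The groups did not overlap at any stage. Its PFI-3 effect differed between DM 24h and DM 48h (log2 difference -0.97 ± 0.15, adjusted p = 0.00116). The 24 h call of Irs2 was lost without DMSO A (adjusted p = 0.0668) or PFI-3 A (0.0584). Irs1 was lower at all 3 stages, with log2 fold changes of -0.37, -0.28 and -0.35 (adjusted p = 0.0107, 0.0186 and 0.00545). Its 24 h call was lost without any 1 of the 4 libraries (up to 0.130), and its 48 h call without DMSO A (0.0501) or PFI-3 B (0.0585). Insr, the insulin receptor, was called at 48 h only (log2 fold change -0.25 ± 0.09, adjusted p = 0.0495), and not without any 1 of the 4 libraries (up to 0.247). Grb10, an imprinted inhibitor of these receptors, had 0 and 1 counts in GM DMSO and 39 and 37 at 48 h DMSO, and was not called for PFI-3.

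Of 12 genes of the PI3K and AKT list, 9 were called at 48 h, 3 higher and 6 lower, and 10 without the GM libraries (3 higher, 7 lower). All genes gave 27.4% (13.4% higher, 14.0% lower) and 47.2% in these fits. The regulatory subunit genes Pik3r1 (log2 fold change 0.72 ± 0.12, adjusted p = 0.00107) and Pik3r3 (log2 fold change 0.62 ± 0.15, adjusted p = 0.00773) were higher. Pik3r3 was not called without DMSO A (0.0590), DMSO B (0.0603) or PFI-3 B (0.0539). The lower genes included the catalytic subunit gene Pik3cb (log2 fold change -0.57 ± 0.13, adjusted p = 0.00740) and the kinase gene Akt2 (log2 fold change -0.32 ± 0.06, adjusted p = 0.00212). Pik3cb was not called without DMSO B (0.0546) or PFI-3 B (0.0598). Of the 5 genes for GSK3 kinases and FOXO factors, 3 were called at 48 h, beside 27.4% of all genes, and all 3 were lower: Foxo1 (log2 fold change -0.46 ± 0.07, adjusted p = 0.000263), Foxo3 (-0.41) and Foxo4 (-0.37), transcription factors that AKT keeps out of the nucleus. Foxo3 was not called without DMSO A (0.0882) or PFI-3 B (0.108), and Foxo4 without any 1 library (up to 0.146). Pik3cb, Akt2 and the FOXO genes are named after their values were seen. In the mTOR list of 12 genes, 2 were higher and 3 lower at 48 h, beside the same 27.4%. Deptor, an mTOR inhibitor, was at 396 and 398 CPM with DMSO and 219 and 225 with PFI-3 (log2 fold change -0.84 ± 0.07, adjusted p = 7.17e-06). Eif4ebp1, a translation repressor under mTOR control, was also lower (log2 fold change -0.83 ± 0.26, adjusted p = 0.0331), with no call when any 1 of the 4 libraries was left out (adjusted p up to 0.171). Tsc2, an upstream inhibitor of mTOR, was lower in GM (log2 fold change -0.35 ± 0.08, adjusted p = 0.0145; 0.0522 without PFI-3 B), and Inppl1, a lipid phosphatase, at 24 h (log2 fold change -0.42 ± 0.08, adjusted p = 0.00288).

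Of 6 tested genes for proteases of the binding proteins and their inhibitors, 3 were called in GM (2 higher, 1 lower), 3 at 24 h (1 higher, 2 lower) and 2 at 48 h (1 of each), beside 11.6%, 23.6% and 27.4% of all genes. Htra1, a secreted protease that cuts Igfbp5, was higher at every stage, by 0.50, 0.52 and 0.63 on the log2 scale (adjusted p = 0.00289, 0.000883 and 0.000186). Its CPM at 48 h was 59.9 and 59.9 with DMSO and 93.7 and 91.3 with PFI-3. Stc1, a stanniocalcin of the family that inhibits PAPP-A proteases, was at 44.9 and 40.4 CPM with DMSO and 15.8 and 17.2 with PFI-3 at 24 h (log2 fold change -1.37 ± 0.16, adjusted p = 0.000116), and was lower at 48 h too (log2 fold change -1.10 ± 0.17, adjusted p = 0.000585). Adam12, a membrane protease reported to cut Igfbp3 and Igfbp5, was lower in GM (log2 fold change -0.84 ± 0.21, adjusted p = 0.0256) and at 24 h (log2 fold change -1.32 ± 0.23, adjusted p = 0.00162). The GM call of Adam12 was lost without DMSO A (log2 fold change -0.39, adjusted p = 0.132) or PFI-3 B (0.110). Ctsd, the lysosomal protease cathepsin D, was higher in GM (log2 fold change 0.52 ± 0.08, adjusted p = 0.00183). Pappa itself was low, with 3 to 39 counts per library, and not called for PFI-3 at any stage.

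Igf2bp2, which codes for an Igf2 mRNA-binding protein, was higher with PFI-3 at each stage, by 0.28, 0.65 and 0.32 on the log2 scale (adjusted p = 0.0224, 6.06e-05 and 0.00495). The GM call was lost without DMSO A (0.0696) or PFI-3 B (0.0663). At 24 h, where Igf2 was lower, Igf2bp2 was at 35.4 and 35.5 CPM with DMSO and 54.1 and 57.1 with PFI-3. Igf2bp1 and Igf2bp3 had at most 28 counts in any library and were not called for PFI-3. In fits of the 4 GM libraries alone, Irs2 was still called (adjusted p = 0.0382), and Irs1, Tsc2, Ctsd, Htra1, Adam12 and Igf2bp2 were not (0.205 to 0.334).

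**Figure D5:**
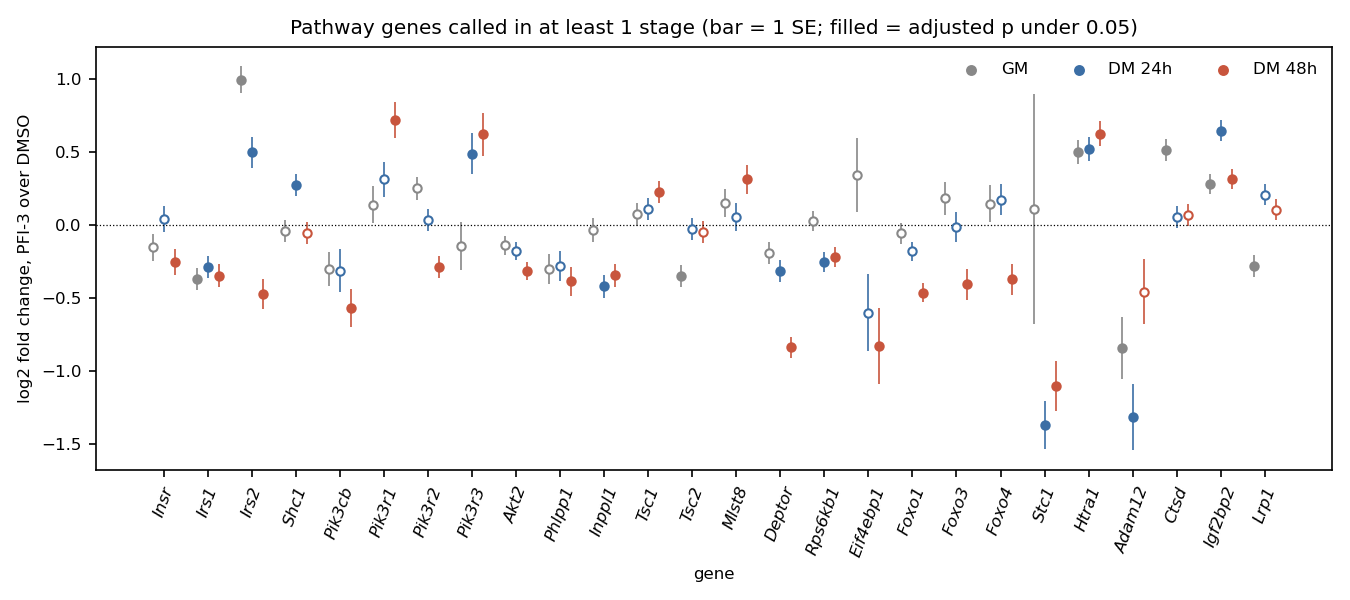
Log2 fold change of PFI-3 over DMSO (vertical axis) for 26 pathway genes called in at least 1 stage (horizontal axis), in GM (grey), at 24 h (blue) and at 48 h (red), from edgeR; bars are 1 SE and filled points have an adjusted p under 0.05. Irs2 is filled on the higher side in GM and at 24 h and on the lower side at 48 h, while Htra1 is filled on the higher side at all 3 stages.

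Marker levels differed in the same comparisons. The summed CPM of the 6 myotube markers at 48 h was 16370 to 16410 with DMSO and 10780 to 11010 with PFI-3. The myoblast markers summed to 1916 to 1932 CPM with DMSO and 1380 to 1411 with PFI-3 at 24 h, and 3330 to 3438 against 2739 to 2879 at 48 h. Des was the largest part of this sum at both times. Myf5 went the other way at 24 h, at 42.8 and 39.0 CPM with DMSO and 46.6 and 51.3 with PFI-3. The other myoblast markers were lower there in both PFI-3 libraries. The sum of 5 fibroblast markers (Pdgfra, Dcn, Thy1, Col1a1 and Tcf21) was 45.2 to 50.0 CPM with DMSO and 25.3 to 30.8 with PFI-3 in GM. It was 420 to 424 CPM with DMSO and 101 to 102 with PFI-3 at 24 h, and 603 to 620 against 168 to 176 at 48 h, with Tcf21 at 0 throughout and Thy1 at 0 in 3 of the 6 groups. Col1a1 made up most of this sum, at 399.5 and 396 CPM with DMSO and 63.8 and 61.3 with PFI-3 at 24 h. Pdgfra was on the other side, at 12.1 and 11.1 CPM with DMSO and 25.9 and 25.1 with PFI-3 at 24 h, and 10.7 and 11.5 against 24.4 and 22.3 at 48 h. Dcn at 48 h was at 15.1 and 14.9 with DMSO and 22.3 and 19.1 with PFI-3. Adipocyte markers summed to 3.11 to 23.4 CPM over all libraries, leukocyte markers to at most 9.55, endothelial markers to at most 5.77 and liver markers to at most 0.47. Their part in the differences of the IGF genes was not tested.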

How the data were processed

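RNA-seq of 12 C2C12 libraries was read from 1 deposited gene table per library. Per the file headers, each table gives expected counts, which the authors estimated per gene, FPKM values (per length and library size) and a transcript length. The submitters' processing notes name the mm10 build and HISAT, StringTie, Cufflinks, Bowtie, RSEM and DESeq2, with no roles, order or versions. A gene not listed in a library was set to 0; such genes had a median of 1 count in the replicate that listed them.

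For edgeR 4.0.16 in R 4.3.3, expected counts were first rounded; TMM scaling, the filterByExpr filter (12545 genes kept) and the quasi-likelihood test in 1 model of 6 groups over all 12 libraries, without pairing, were then applied. Genes with a Benjamini-Hochberg adjusted p under 0.05 over all genes tested were called. Errors of log2 fold changes are SEs from the fit. The p-values measure only the spread between these libraries, which the labels call biological duplicates. Alternatives were DESeq2 1.42.0, its size factors, limma 3.58.1 on log2(FPKM + 1) and log2(FPKM + 0.1), other filters, fits of only the libraries compared, a replicate block and leaving out each library. The fit without the 4 GM libraries was added after the data were seen. The edgeR script was tested on simulated data.

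All 10 genes are described. Pathway genes were named by the 3 largest rises and falls per PFI-3 comparison among called genes averaging 5 CPM or more, and Insr, Irs1, Irs2, Grb10, Pappa and Igf2bp1 to 3 in any case. The members and lists were chosen with earlier results of these data known. Promoter windows were copied from RefSeq (GRCm38.p6). Some genes that the rule or lists hold are not reported here.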

Additional observations from a re-analysis of the deposited data

Results flagged for a closer look

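The PFI-3 effect differed between stages in 7 interaction contrasts of edgeR's quasi-likelihood test with Benjamini-Hochberg adjustment. Each value is the later stage's log2 fold change minus the earlier one's.

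Between DM 24h and DM 48h, the effect on Igf2 differed by 0.88 (adjusted p = 0.000312), that on Igfbp2 by 1.12 (adjusted p = 0.00522), that on Igfbp7 by 0.68 (adjusted p = 0.00587) and that on Igfbp4 by -0.91 (adjusted p = 0.00868). Between GM and DM 48h, the effect on Igfbp2 differed by 1.15 (adjusted p = 0.00382) and that on Igfbp6 by 0.97 (adjusted p = 0.0301). Between GM and DM 24h, the effect on Igfbp4 differed by 1.05 (adjusted p = 0.0408). Fits of only the libraries compared did not call this Igfbp4 contrast (adjusted p = 0.150) or the Igfbp6 contrast (0.0927). In each contrast with GM the spread of the GM libraries enters the difference, and its part was not tested. PFI-3 exposure was longer at the later stage of every contrast, and stage and exposure cannot be told apart.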

How the results depend on the processing

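Of 1328 estimates for the 10 genes under the alternatives, 1146 kept their direction and side of the threshold, 63 lost a call, 77 gained one, 42 uncalled values changed sign and no called value did.

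Calls over all genes in the fits named here are given at the end of this section. Called members for PFI-3 in GM numbered 1. They were 0 in a fit of only the libraries compared (9 tested, 1 at an unadjusted p under 0.05), 2 by DESeq2, 3 with a replicate block on only those libraries, and 1 to 3 with 1 library left out. At DM 24h they numbered 5, and 8, 8 and 8 with only the libraries compared, with that replicate block and without the GM libraries, 3 by limma on log2(FPKM + 0.1), and 3 to 4 with 1 library left out. At DM 48h they numbered 4, and 8, 8 and 8 in the same 3 fits, 1 by limma with either pseudocount, and 0 to 1 with 1 library left out (0 without DMSO A or PFI-3 B, each with 4 at an unadjusted p under 0.05). For the change of effect from GM to DM 24h, 1 was called, and 0 with only the libraries compared (3 at an unadjusted p under 0.05), 6 with that replicate block, 2 by DESeq2, 3 by limma on log2(FPKM + 1), and 0 to 3 with 1 library left out. From GM to DM 48h, 2 were called, and 1, 5, 1 and 1 with only the libraries compared, with that replicate block and by limma with either pseudocount, and 1 to 5 with 1 library left out. From DM 24h to DM 48h, 4 were called, and 7, 7 and 7 with only the libraries compared, with that replicate block and without the GM libraries.

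Same-lettered libraries deviated together in GM (correlation 0.449) but little at DM 24h (0.0131) or DM 48h (0.0271). The labels give the letters no shared batch, and they were not used as pairs in the main test. With a replicate block over all 12 libraries, 1 member was called in GM, beside 1489 of all genes.

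Over all genes, calls in GM went from 1456 to 32 with only the libraries compared, 741 with that replicate block and 2734 without GM DMSO B. At DM 24h 2966 became 5583, 5719 and, without the GM libraries, 5525, and 1320 to 1469 with 1 library left out. At DM 48h 3438 became 5688, 6034 and 5833, and 1937 to 2073. The interactions gave 423 (79, 763, and 92 to 995 left out) from GM to DM 24h, 1824 (1037, and 1010 to 2924) from GM to DM 48h, and 1517 (4154, 4336, 4154, and 790 to 865) between DM stages. Higher genes made up 75.3% and 75.5% of calls by limma with pseudocounts 1 and 0.1 in GM against 47.0% by edgeR, 62.0% and 61.6% against 51.7% at DM 24h, 65.3% and 68.4% against 48.9% at DM 48h, and 32.9% and 31.3% against 52.7% for the GM to DM 24h interaction. DESeq2 called 1118 genes in GM and 460 for the GM to DM 24h interaction. By limma with pseudocounts 1 and 0.1, 3910 and 3633 were called at DM 48h, and 2142 and 1833 for the GM to DM 48h interaction. Pseudocount 0.1 gave 2780 at DM 24h, and pseudocount 1 gave 595 for the GM to DM 24h interaction. The replicate block on only the libraries compared called 2254 for GM to DM 48h. Igf1 had 0 to 4 counts in GM, too few for a PFI-3 fold there.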
